A study of Mus musculus with 10 samples.

Results

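The mRNAs of 9 hormones and stress proteins that hepatocytes secrete were followed in bulk RNA-seq of mouse liver: Fgf21, Gdf15, Angptl4, Angptl8, Fgl1, Inhbe, Igfbp1, Lect2 and Fst. They were chosen by gene symbol from the 55291 genes of the deposited count table. All 9 were present, and all 9 passed the filter on low counts that kept 17015 genes for testing. The 10 livers came from Cas9 Lox-Stop-Lox female mice aged 16 to 20 weeks, all of which had received an AAV8-U6-sgRNA-TBG-Cre virus through the tail vein. Control mice carried a non-targeting guide (NTC) and the others a guide against Bap1 (sgBap1), a nuclear deubiquitinase. On day 10 the mice received CCl4 diluted 1 to 9 in olive oil, or olive oil alone (Veh), by intraperitoneal injection at 10 µL per g of body weight, and the right lobe was taken for RNA 48 h later. Each vehicle group (NTC-Veh and sgBap1-Veh) had 2 livers and each CCl4 group (NTC-CCl4 and sgBap1-CCl4) had 3, with 33047904 to 52199904 estimated counts a liver. The mice were bred from a Jackson Laboratory stock whose number is given but whose background strain is not named in the sources used here. The TBG promoter is meant to drive Cre, and with it Cas9, in hepatocytes. The paper reports that most cells scored in liver sections stained for Cre, at similar shares in all groups. It also reports that a minority of the guide site sequences were edited in liver tissue used for this RNA-seq. Such tissue also holds cells other than hepatocytes. These livers therefore hold many copies of Bap1 that were not cut, and Bap1 mRNA was not measured by cell type or by edited cell. Levels are given as CPM, the usual read count scaled to library size, after TMM scaling, and P-values measure the spread between these mice.

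Hepatokines are proteins that the liver releases into the blood to act on other organs or on the liver itself. Fgf21 and Gdf15 are hormones of nutrient and cell stress, Angptl4 and Angptl8 restrain the lipase that unloads triglyceride from blood lipoproteins, and Igfbp1 binds insulin-like growth factors and is switched off by insulin. Inhbe encodes activin E, and Fst encodes follistatin, a secreted protein that traps activins. CCl4 is turned by hepatocyte enzymes into a radical that kills the cells around the central veins, and at 48 h the surviving liver is regrowing and full of recruited macrophages.

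Bap1 itself was lower in every sgBap1 liver. It stood at 34.8 and 34.8 CPM in the NTC-Veh livers against 17.6 and 19.5 CPM in the sgBap1-Veh livers, and its log2 fold change was -0.91 (SE 0.12, adjusted P = 0.0208). With CCl4 it stood at 30.1, 31.5 and 29.5 CPM in NTC livers against 17.0, 21.8 and 19.1 CPM in sgBap1 livers, and the value was -0.65 (SE 0.10, adjusted P = 0.0295). The summed level of 10 hepatocyte markers was 122000 to 168600 CPM in the vehicle livers and 71680 to 91810 CPM after CCl4, and that of 8 recruited macrophage markers went from 96.3 to 159 CPM up to 709.6 to 1096 CPM. With CCl4, 8 of the 10 hepatocyte markers were lower in NTC livers and 5 in sgBap1 livers, and all 8 macrophage markers were higher in both. In bulk liver fewer cells of a type and less RNA per cell cannot be told apart, and the part of this shift in the results below was not tested. 1 liver, sgBap1-CCl4 replicate 2, also carried adipocyte RNA: its 7 adipocyte markers summed to 545.3 CPM against 5.76 to 30.6 CPM in the other 9 livers, and its stellate cell and fibroblast markers summed to 1192 CPM against at most 624.9 CPM elsewhere.

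The 9 hepatokines covered a wide range of levels. Lengths were those of all annotated exons of a gene together, which can exceed the transcripts present in liver. The order of genes with close values per kilobase therefore depends on the annotation. Per kilobase of exon, the group means of Fgl1 were 154 to 358.8 CPM, those of Lect2 135.1 to 217.8 CPM and those of Igfbp1 45.1 to 339.4 CPM. Angptl4 (25.5 to 40.8 CPM per kilobase), Angptl8 (14.7 to 26.2) and Inhbe (8.18 to 18.7) came next. Fgf21 (3.14 to 7.1), Gdf15 (2.29 to 5.65) and Fst (0.318 to 4.79) were the lowest, and Fst moved most between groups. Even the lowest readings were well above the floor of 3 counts, which is at most 0.112 CPM here: Fgf21 and Fst had no fewer than 37 counts in any liver. All 9 are protein-coding genes, and their positions (GRCm38) are chr7:45613886-45615490 for Fgf21, chr8:70629393-70632456 for Gdf15, chr17:33773750-33781830 for Angptl4, chr9:21835510-21837347 for Angptl8, chr8:41191434-41215156 for Fgl1, chr10:127348857-127354411 for Inhbe, chr11:7197782-7202546 for Igfbp1, chr13:56542464-56548502 for Lect2 and chr13:114452290-114458951 for Fst. Angptl8 lies on the other strand from Dock6, Inhbe from Gm47200 and Fst from Gm47040, and whether Salmon counted these stranded libraries by strand is not given in the sources used here.

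**Figure D1:**
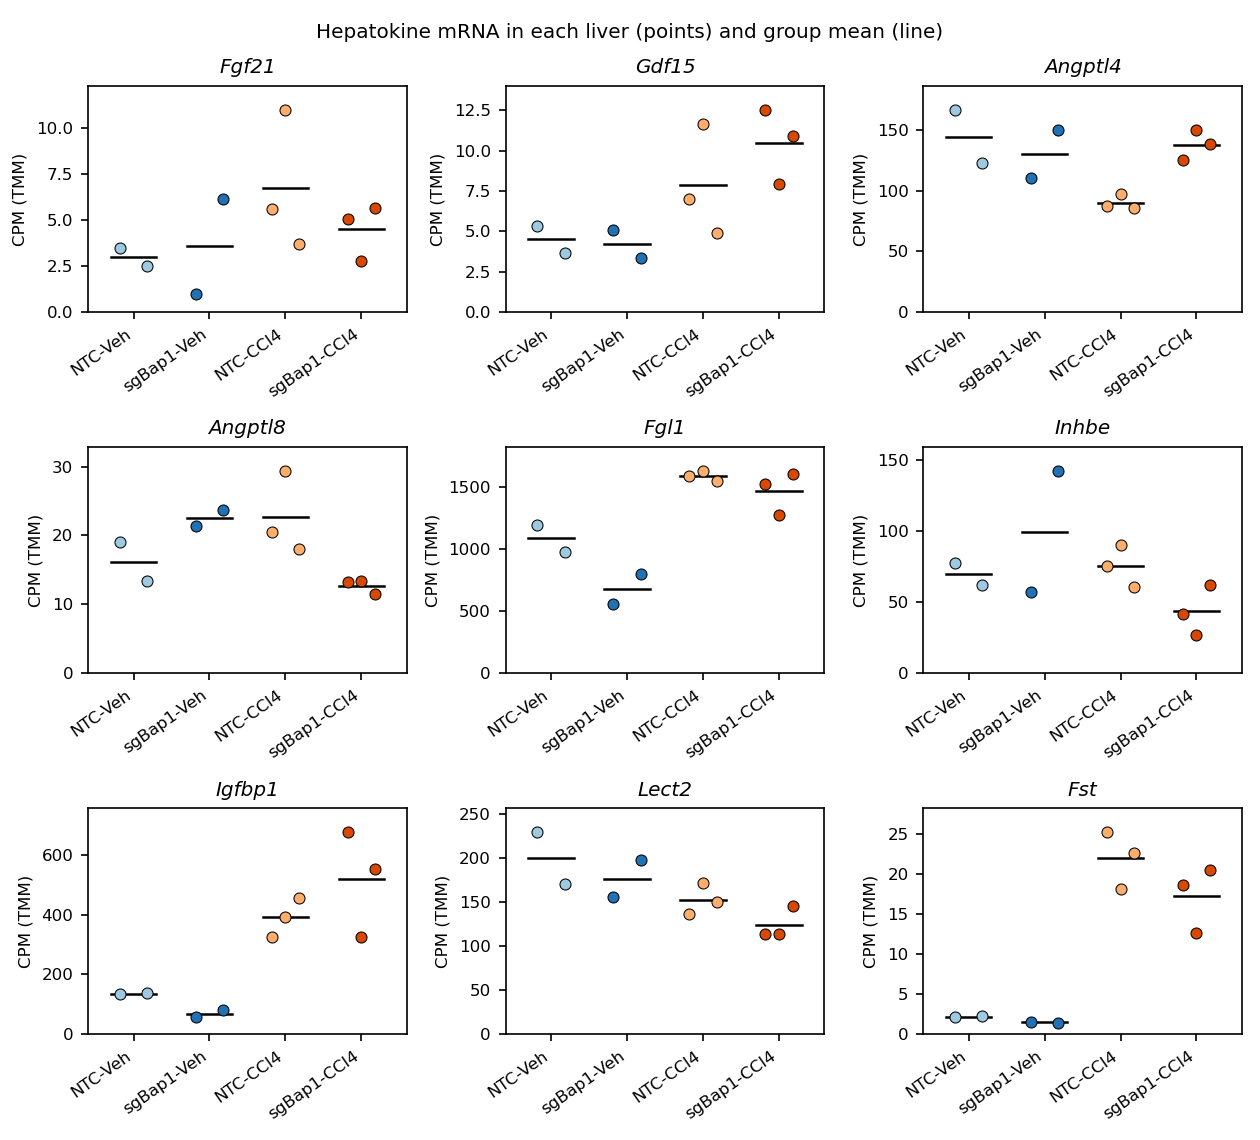
Level of each hepatokine mRNA (vertical axis, CPM after TMM scaling, starting at 0) in each of the 10 livers (points) by group (horizontal axis), with the group mean as a line. Fst and Igfbp1 were higher in every CCl4 liver than in any vehicle liver, while the 3 NTC-CCl4 livers had the lowest Angptl4 readings, 85.7 to 97.2 CPM.

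The first question was how the liver's secreted signals change after injury in control mice. In NTC livers CCl4 raised 3 of the 9 hepatokines, Fst, Igfbp1 and Fgl1, and lowered 1, Angptl4, in edgeR's quasi-likelihood test with Benjamini-Hochberg adjustment. That is 4 of 9 beside 53.9% of all tested genes, and by direction 27.4% of all genes were higher and 26.6% lower. With 9 genes, a gap from the background share is not read as a result about the list. In sgBap1 livers 7 of 9 were called beside 57% of all genes (29% higher and 28% lower): Fst, Igfbp1, Fgl1 and Gdf15 rose, and Angptl8, Inhbe and Lect2 fell. Fgf21 was called in neither. The median log2 fold change of the 9 was 0.55 in NTC and 0.38 in sgBap1 livers, against 0.03 and 0.04 over all genes. These 2 comparisons share no livers, but their spread was estimated in a single fit over all 10 livers, so they are not fully independent. The comparisons between genotypes further on use the same livers again.

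**Figure D2:**
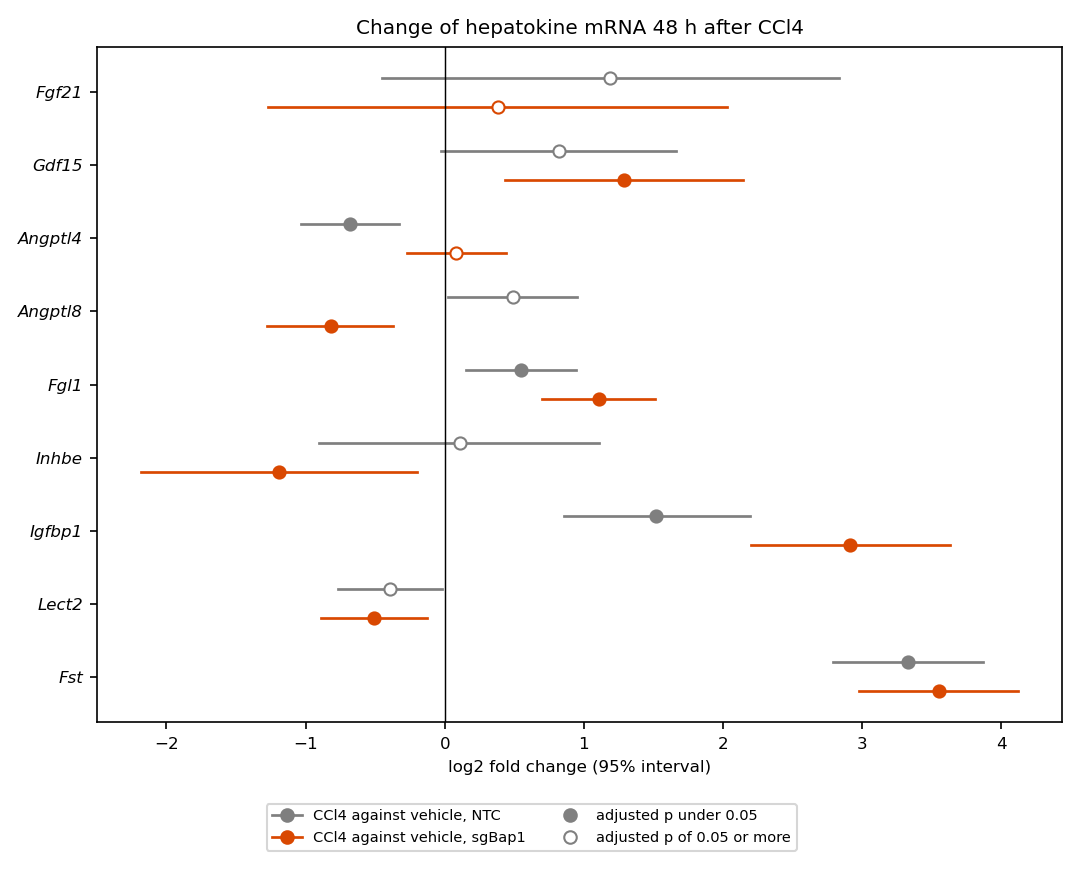
Log2 fold change with CCl4 (horizontal axis, with the 95% interval of the quasi-likelihood test) of each hepatokine in NTC livers (grey) and in sgBap1 livers (orange). Filled points have an adjusted P under 0.05. Fst lies at 3.33 and 3.55, and Angptl8 lies on opposite sides of 0 at 0.49 and -0.82, of which the second passed the test.

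Follistatin showed the largest change of the 9. Fst stood at 2.15 and 2.22 CPM in the NTC-Veh livers and at 25.2, 18.1 and 22.7 CPM in the NTC-CCl4 livers. In sgBap1 mice it stood at 1.53 and 1.39 CPM with vehicle and at 18.6, 12.6 and 20.5 CPM with CCl4. Every CCl4 liver was above every vehicle liver, with no overlap in either genotype. The rise was 10.1-fold in NTC livers (log2 fold change 3.33, SE 0.24, adjusted P = 3.85e-06) and 11.7-fold in sgBap1 livers (3.55, SE 0.26, adjusted P = 3.42e-06). 

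Inhbe, whose product signals to fat tissue to curb lipolysis, was called in sgBap1 livers and not in NTC livers. It stood at 77.7 and 62.2 CPM in the NTC-Veh livers and at 75.4, 89.9 and 60.6 CPM in the NTC-CCl4 livers, and these groups overlapped. The sgBap1 livers read 56.7 and 142.1 CPM with vehicle and 41.4, 26.9 and 62.2 CPM with CCl4. The sgBap1 groups overlapped too, and the 2 vehicle readings were far apart. The log2 fold change was 0.11 in NTC livers (SE 0.44, adjusted P = 0.853) and -1.19 in sgBap1 livers (SE 0.43, adjusted P = 0.0437). That call was fragile: it was lost without any 1 of 8 of the 10 livers, with -0.38 (adjusted P = 0.486) without sgBap1-Veh replicate 2 and -0.94 (adjusted P = 0.121) without the liver with adipocyte RNA.

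The other activin genes and inhibitors rose or did not pass the test. Of 10 tested beside Inhbe and Fst, signalling factors included, 4 rose and none fell in NTC livers, and 5 rose and none fell in sgBap1 livers, with medians of 0.32 and 0.47. The shares called, 40% and 50%, were no higher than the 53.9% and 57% of all genes. Inhbb, the activin B subunit, rose with log2 fold changes of 2.39 (SE 0.41) and 2.62 (SE 0.41), and the follistatin relatives Fstl3 (2.98 and 3.17) and Fstl1 (2.81 and 2.96) rose in both genotypes. Inhba and Inhbc, the activin A and C subunits, were not called, with values of 0.16 and 0.40 for Inhba and of 0.02 and 0.22 for Inhbc. Of the type II receptors, Acvr2a (-0.50 and -0.59) and Acvr2b (-1.27 and -0.85) fell in both genotypes.

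Igfbp1, which is made by hepatocytes when insulin is low and during regeneration, was the other strong riser. It stood at 134.7 and 136.7 CPM in the NTC-Veh livers and at 325.4, 391.3 and 454.3 CPM in the NTC-CCl4 livers. In sgBap1 livers it stood at 56.0 and 81.4 CPM with vehicle and at 675.9, 325.3 and 551.5 CPM with CCl4. The sgBap1-Veh livers were the 2 lowest of all 10 and the highest 2 were sgBap1-CCl4 livers. The rise was 2.88-fold in NTC livers (log2 fold change 1.52, SE 0.30, adjusted P = 0.00194) and 7.54-fold in sgBap1 livers (2.91, SE 0.32, adjusted P = 5.46e-05).

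The bases just before the Igfbp1 start are shown because they hold the insulin response element for which this gene is known, a forkhead site. Sequences here are from RefSeq (GRCm38.p6). The stretch is chr11:7197537-7197781 on the + strand, cut before the first base that GENCODE gives as UTR, and the capitals mark CAAAACA, the reverse complement of TGTTTTG.
Igfbp1: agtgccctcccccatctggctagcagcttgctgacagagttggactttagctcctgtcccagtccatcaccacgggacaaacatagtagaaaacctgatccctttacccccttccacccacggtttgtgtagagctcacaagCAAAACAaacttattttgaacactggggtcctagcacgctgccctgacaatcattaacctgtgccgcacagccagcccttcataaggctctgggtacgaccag
This motif was picked after the sequence had been read. It lies 108 to 102 bases before the start, and 5.56% of the 32851 promoter windows of 250 bases hold it on either strand.

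Around Igfbp1, more genes of the insulin-like growth factor system fell than rose. Of 14 tested genes, 1 rose and 8 fell in NTC livers, and 2 rose and 7 fell in sgBap1 livers, with medians of -0.97 and -0.93. In each genotype 64.3% of the list was called, beside 53.9% and 57% of all genes. Igf1, the main circulating growth factor of the liver, fell with log2 fold changes of -0.98 (SE 0.23) and -1.05 (SE 0.23), and Ghr, the growth hormone receptor, fell by 1.91 and by 2.24 on the log2 scale. Igfbp2 (-2.30 and -2.03) and Igfals (-1.75 and -2.03), other carriers of the hormone, fell as well. Igf1r, its receptor, was not called in NTC livers (0.58, adjusted P = 0.142) and was barely called in sgBap1 livers (0.80, adjusted P = 0.0496). Of 20 genes driven by insulin, SREBP1 or ChREBP or answering to insulin, none rose while 16 fell in NTC livers and 17 fell in sgBap1 livers, with medians of -1.11 and -2.10. These calls were 80% and 85% of the list, beside 53.9% and 57% of all genes. Within the list Thrsp, a lipogenic factor, fell by 4.79 and by 5.20 on the log2 scale. The list mixes genes that insulin raises with genes that it lowers, such as G6pc, which fell by 2.58 in NTC livers. Insulin signalling itself was not tested.

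Fgf21 and Gdf15, the stress hormones, were low and variable. Fgf21 stood at 3.49 and 2.49 CPM in the NTC-Veh livers and at 5.61, 10.95 and 3.70 CPM in the NTC-CCl4 livers. The sgBap1 livers had 0.996 and 6.14 CPM with vehicle and 5.04, 2.77 and 5.63 CPM with CCl4. The NTC groups did not overlap, and 1 liver stood above the rest, while the sgBap1-Veh pair lay on both sides of all 3 sgBap1-CCl4 livers. The log2 fold change was 1.19 in NTC livers (95% interval -0.45 to 2.83, adjusted P = 0.195) and 0.38 in sgBap1 livers (-1.27 to 2.03, adjusted P = 0.674).

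Gdf15 stood at 5.34 and 3.66 CPM in the NTC-Veh livers and at 7.04, 11.7 and 4.92 CPM in the NTC-CCl4 livers. In sgBap1 livers it stood at 5.11 and 3.37 CPM with vehicle and at 12.5, 7.94 and 10.9 CPM with CCl4. Only the sgBap1 groups were free of overlap. The rise in sgBap1 livers was 2.44-fold (log2 fold change 1.29, SE 0.38, adjusted P = 0.0166), whereas the value in NTC livers, 0.82 (SE 0.37), did not pass (adjusted P = 0.0936). It did pass with DESeq2's Wald test (0.80, adjusted P = 0.0461) and without NTC-CCl4 replicate 3 (1.06, adjusted P = 0.0268). The call in sgBap1 livers was lost without sgBap1-Veh replicate 2 (1.03, adjusted P = 0.125). The 2 changes were not shown to differ, with a difference of 0.47 (SE 0.52, adjusted P = 0.831).

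Klb, the co-receptor that Fgf21 needs, fell in both genotypes. It stood at 43.7 and 55.0 CPM in the NTC-Veh livers and at 21.6, 19.5 and 20.1 CPM in the NTC-CCl4 livers. The sgBap1 livers read 35.1 and 36.0 CPM with vehicle and 17.8, 14.8 and 12.8 CPM with CCl4. No CCl4 liver reached the lowest vehicle liver, and Klb fell 2.42-fold in NTC (log2 fold change -1.27, SE 0.14) and 2.35-fold in sgBap1 livers (-1.23, SE 0.14). Fgfr1 (0.04 and 0.73) and Fgfr4 (-0.12 and -0.02) were not called, and Gfral, the Gdf15 receptor of the hindbrain, had 0 counts in all 10 livers. Over the 19 tested hepatokine receptors, 3 rose and 6 fell in NTC livers, and 4 rose and 6 fell in sgBap1 livers, with medians of -0.06 and -0.01. The shares called, 47.4% and 52.6%, were near the 53.9% and 57% of all genes.

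Fgf21 and Gdf15 are both targets of the integrated stress response, in which ATF4 drives amino acid genes. Of 20 genes of that response, 10 rose and 3 fell in NTC livers, and 12 rose and 3 fell in sgBap1 livers, with medians of 0.55 and 1.19. The risers included Phgdh (5.58 and 5.65) and Psat1 (4.92 and 4.71), enzymes of serine synthesis, and the cystine transporter Slc7a11 (8.01 and 6.92). Slc7a11 had 1 to 2 counts in NTC-Veh and 2 to 5 in sgBap1-Veh livers, around the floor of 3 counts. Phgdh was low there too (4.83 to 7 and 5.98 to 13.7 counts), so the sizes of these changes are uncertain. Gdf15 is also a p53 target, and of 12 p53 targets 6 rose and 3 fell in NTC livers, and 10 rose and 1 fell in sgBap1 livers, with medians of 0.30 and 1.02. Calls were 65% and 75% of the stress response list and 75% and 91.7% of the p53 list, beside 53.9% and 57% of all genes. Cdkn1a, the cell cycle inhibitor, rose by log2 fold changes of 1.31 (SE 0.29) and 3.10 (SE 0.32).

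RefSeq promoters were at hand for 6 of the 9 hepatokines, Fgf21, Gdf15, Angptl8, Inhbe, Igfbp1 and Lect2. Over the 250 bases before the start they were searched on both strands for 7 motifs, and no matches overlapped each other. TGATGNAA is the core of the composite site of ATF4 and C/EBP. The motif of the cyclic AMP response was searched as TGACGTCA. For the forkhead factors the letters were TGTTTAC, and for AP-1 factors TGANTCA was used. An E-box was taken as CACGTG. The TATA box was searched as TATAAA, and the DR1 element of PPAR factors was the last. TGATGNAA was found before Fgf21, Angptl8 and Inhbe, against 3.45% of all 32851 windows. The 30 bases around each match are shown because the genes share it, each on the strand of its gene, with the match in capitals. TTGCATCA, before Fgf21 and Inhbe, is the reverse complement of TGATGCAA.
Fgf21: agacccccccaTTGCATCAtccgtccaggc
Angptl8: agccatcagtcTGATGCAAtggctgagcct
Inhbe: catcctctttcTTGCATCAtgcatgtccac
These lie at chr7:45615611-45615640 (- strand), chr9:21835369-21835398 (+ strand) and chr10:127352011-127352040 (- strand), and the last lies in a longer 5′ UTR that GENCODE gives Inhbe. The matches begin 139, 130 and 181 bases before the RefSeq starts.

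The full windows of Fgf21 (chr7:45615491-45615740, - strand) and of Gdf15 (chr8:70632457-70632706, - strand) show what else matched, again in capitals.
Fgf21: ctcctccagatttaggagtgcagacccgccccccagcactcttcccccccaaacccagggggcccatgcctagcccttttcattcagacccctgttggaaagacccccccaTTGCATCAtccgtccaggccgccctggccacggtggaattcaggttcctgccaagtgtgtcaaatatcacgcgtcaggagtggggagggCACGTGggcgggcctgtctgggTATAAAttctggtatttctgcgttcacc
Gdf15: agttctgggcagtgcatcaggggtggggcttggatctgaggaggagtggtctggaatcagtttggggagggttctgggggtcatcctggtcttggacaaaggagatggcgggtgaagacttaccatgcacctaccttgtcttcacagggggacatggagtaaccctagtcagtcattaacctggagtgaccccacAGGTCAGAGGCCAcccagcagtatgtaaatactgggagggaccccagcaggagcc
Beside TGATGNAA the Fgf21 window holds an E-box (6.02% of all windows) and a TATA box (12.4%). The Gdf15 window holds a DR1 element (0.338%), and its second RefSeq start has an E-box. The Lect2 window held none of the 7 motifs. A match is a description of the letters and not of binding.

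Angptl4 and Angptl8, the inhibitors of lipoprotein lipase, were each called in 1 genotype, Angptl4 in NTC and Angptl8 in sgBap1 livers. Angptl4 stood at 166.3 and 122.9 CPM in the NTC-Veh livers and at 87.5, 97.2 and 85.7 CPM in the NTC-CCl4 livers. In sgBap1 livers it stood at 110.2 and 150.2 CPM with vehicle and at 125.5, 149.8 and 138.8 CPM with CCl4. The NTC-CCl4 livers were below all of the other 7, whereas the sgBap1 groups overlapped throughout. Angptl4 fell 1.60-fold in NTC livers (log2 fold change -0.68, SE 0.16, adjusted P = 0.00419) and was at 0.08 in sgBap1 livers (SE 0.16, 95% interval -0.27 to 0.44, adjusted P = 0.671). Without NTC-Veh replicate 1 the NTC call was lost (-0.45, adjusted P = 0.0637).

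Angptl8, which feeding induces, stood at 19 and 13.4 CPM in the NTC-Veh livers and at 20.6, 29.3 and 18.1 CPM in the NTC-CCl4 livers. In the sgBap1 mice it read 21.4 and 23.7 CPM with vehicle and 13.2, 13.3 and 11.6 CPM with CCl4. The sgBap1-CCl4 livers were the 3 lowest of the 10, the nearest NTC-Veh reading being 13.36 CPM, and did not overlap with the sgBap1-Veh livers, while the NTC groups overlapped. Angptl8 fell 1.77-fold in sgBap1 livers (log2 fold change -0.82, SE 0.20, adjusted P = 0.00637). The value in NTC livers was 0.49 (SE 0.21, adjusted P = 0.0729), which passed without NTC-Veh replicate 1 (0.76, adjusted P = 0.0358) or NTC-CCl4 replicate 3 (0.63, adjusted P = 0.0292).

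Among their relatives and lipases, 1 of 14 tested genes rose and 9 fell in each genotype, with medians of -0.53 and -0.60. Calls were 71.4% of the list in each genotype, beside 53.9% and 57% of all genes. The riser was Lpl, the lipase itself, at 17.5 and 16.2 CPM in NTC-Veh and 177.2, 135.6 and 174.6 CPM in NTC-CCl4 livers (log2 fold change 3.27, SE 0.48). In sgBap1 livers Lpl read 39.6 and 16.2 CPM with vehicle and 134.3, 275.3 and 132.9 CPM with CCl4 (2.69, SE 0.46), and the highest reading was in the liver with adipocyte RNA. Without that liver the value was 2.25 (adjusted P = 0.00204). Lipg, the endothelial lipase, fell (-2.89 and -3.82), as did Angptl6 (-2.04 and -2.06). Angptl4 is a target of PPARalpha, the fasting receptor of hepatocytes, and of 20 PPARalpha targets 2 rose and 15 fell in NTC livers, and 3 rose and 11 fell in sgBap1 livers, with medians of -0.89 and -0.59. Of these targets 85% and 70% were called, beside 53.9% and 57% of all genes. Pdk4, which spares glucose, was among those that rose (1.83 and 3.37), and Cyp4a10, a fatty acid hydroxylase that shares sequence with other Cyp4a genes, was among those that fell (-3.19 and -2).

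Fgl1, a hepatocyte growth factor of regeneration and a ligand of the T cell receptor Lag3, had the highest CPM of the 9 in every group. Per kilobase of exon it came after Lect2 in sgBap1-Veh livers (154 against 192.4 CPM) and after Igfbp1 in sgBap1-CCl4 livers (331.8 against 339.4 CPM). It stood at 1198 and 979.5 CPM in the NTC-Veh livers and at 1590, 1631 and 1550 CPM in the NTC-CCl4 livers. In the sgBap1 mice the readings were 561.7 and 803.8 CPM with vehicle and 1530, 1276 and 1606 CPM with CCl4. All 6 CCl4 livers were above all 4 vehicle livers. The rise was 1.46-fold in NTC livers (log2 fold change 0.55, SE 0.18, adjusted P = 0.0245) and 2.15-fold in sgBap1 livers (1.11, SE 0.18, adjusted P = 0.000498). The NTC call was lost without NTC-Veh replicate 2 (0.41, adjusted P = 0.180), without NTC-CCl4 replicate 1 (0.55, adjusted P = 0.0553) and without NTC-CCl4 replicate 2 (0.53, adjusted P = 0.0533). Lag3 was not called (0.54 and 0.26).

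Lect2, a chemotactic hepatokine that binds the receptor Met, had similar values in both genotypes, and the test called the one in sgBap1 livers. It stood at 229.5 and 170.9 CPM in the NTC-Veh livers and at 136.3, 171.4 and 149.8 CPM in the NTC-CCl4 livers. In sgBap1 livers it stood at 156.2 and 197.5 CPM with vehicle and at 114.3, 113.3 and 145.1 CPM with CCl4. The NTC groups overlapped by a narrow margin and the sgBap1 groups did not overlap. Lect2 fell 1.42-fold in sgBap1 livers (log2 fold change -0.51, SE 0.17, adjusted P = 0.0254) and was at -0.39 in NTC livers (SE 0.17, adjusted P = 0.0730). The sgBap1 call was lost without sgBap1-Veh replicate 2 (-0.33, adjusted P = 0.222), sgBap1-CCl4 replicate 1 (-0.45, adjusted P = 0.0766) or sgBap1-CCl4 replicate 2 (-0.45, adjusted P = 0.0664). Without NTC-Veh replicate 2 the NTC value was called too (-0.59, adjusted P = 0.0356), and the difference between genotypes was -0.12 (SE 0.24, adjusted P = 0.918). Met fell in both genotypes (-0.45 and -0.49).

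How far these falls and rises reach depends on what the libraries are scaled to. TMM factors were 0.786 to 0.851 in vehicle and 1.08 to 1.24 in CCl4 livers. Scaled by library size alone, the median of all genes moved to 0.50 in NTC and 0.52 in sgBap1 livers, so every CCl4 value moved up by about as much. Lect2 in NTC livers then stood at 0.09 in place of -0.39, and Angptl4 there at -0.20 (adjusted P = 0.277). In sgBap1 livers, Angptl8 (-0.34), Inhbe (-0.73) and Lect2 (-0.03) were no longer called and Angptl4 was called as higher (0.57, adjusted P = 0.00804). Under that scaling 5 hepatokines were called in each genotype, all of them higher, beside 62.1% and 64.7% of all genes. The order of the 9 values was the same under all 3 scalings in each genotype, and Fst, Igfbp1 and Fgl1 rose under each of them.

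**Figure D3:**
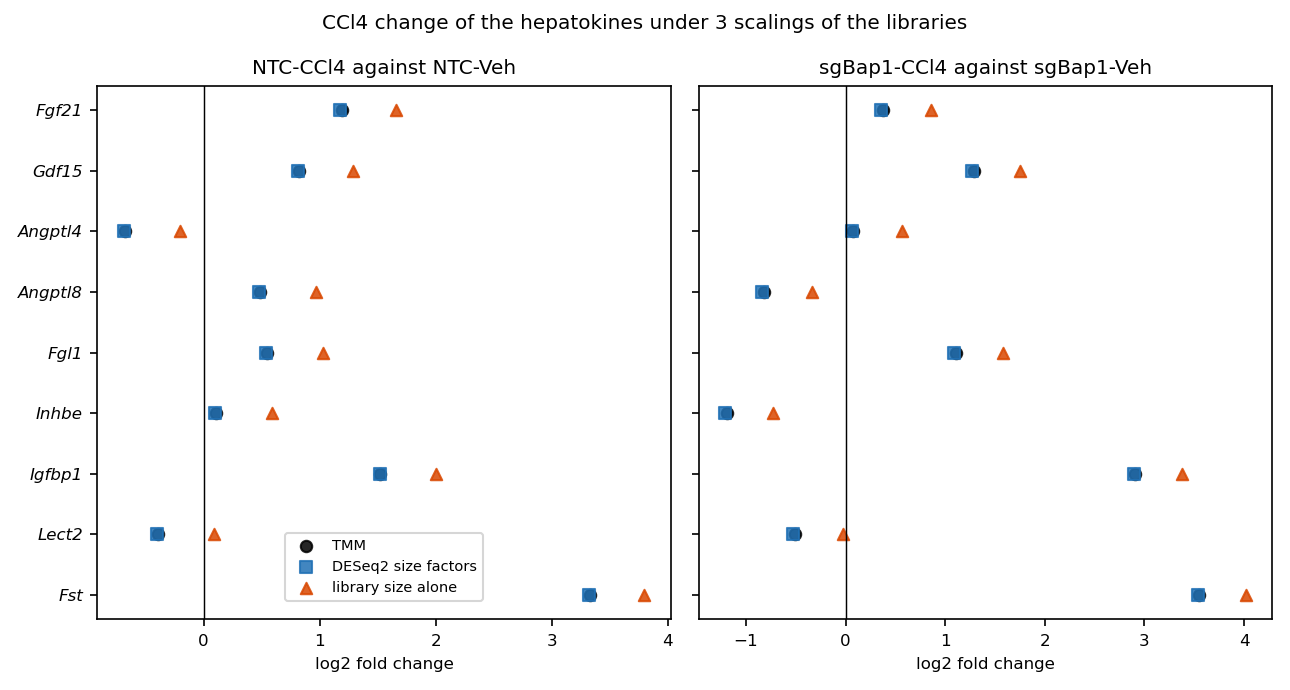
Log2 fold change with CCl4 (horizontal axis) of the hepatokines in NTC livers (left) and sgBap1 livers (right) with libraries scaled by TMM, by DESeq2 size factors and by library size alone. The first 2 nearly coincide, and library size alone shifts each gene to the right, which takes Lect2 in NTC livers from -0.39 to 0.09.

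The next question was whether the Bap1 guide changes these hormones. With vehicle, none of the 9 was called between sgBap1 and NTC livers, beside 0.406% of all genes by edgeR's quasi-likelihood test, a background of 69 genes that ranged from 0 to 150 when 1 liver was left out. 2 of them, Fgl1 and Igfbp1, had an unadjusted P under 0.05, beside 12.3% of all genes. Igfbp1 was 1.98-fold lower in sgBap1-Veh livers (log2 fold change -0.98, SE 0.31, adjusted P = 0.229) and Fgl1 was 1.60-fold lower (-0.67, SE 0.19, adjusted P = 0.171). In each case both sgBap1-Veh livers were below both NTC-Veh livers. The summed markers of several cell types differed without overlap in the same livers, although no single marker was called. Hepatocyte markers summed to 168600 and 138800 CPM in NTC-Veh and 122000 and 129800 CPM in sgBap1-Veh livers, in the same direction as Igfbp1 and Fgl1. Alb made up most of these sums (means of 104600 and 86130 CPM). Tat and Asgr1 went the other way (log2 fold changes of 0.54 and 0.19), and the other hepatocyte markers were at -0.72 to -0.08. The summed markers of Kupffer cells (187.7 to 303.2 against 394.3 to 585.5 CPM), recruited macrophages (96.3 to 106.1 against 143.3 to 159 CPM), T or NK cells (2.05 to 5.06 against 7.67 to 8.34 CPM) and B cells (10.7 to 18.4 against 28.2 to 39.7 CPM) were higher in sgBap1-Veh livers. Of the recruited macrophage markers, Lyz2 gave most of the rise (means of 52.5 and 101.4 CPM). Spp1, Gpnmb and Cx3cr1 had lower means in sgBap1-Veh livers, and the remaining markers of that list had higher ones. The part of these cell types in the values of Igfbp1 and Fgl1 was not tested. The Wald test of DESeq2 called these 2 genes (adjusted P = 0.0331 for Igfbp1 and 0.0165 for Fgl1), beside 3.74% of all genes. Of the lists, only the 20 insulin, SREBP1 and ChREBP targets had calls, Acly (1.28, SE 0.15) and Srebf1 (0.90, SE 0.16), both higher, with a median of 0.63 over the list against 0.02 over all genes.

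With CCl4, again none of the 9 was called between sgBap1 and NTC livers, beside 0.329% of all genes, or 56 genes, with a range of 1 to 71 when 1 liver was left out. Angptl8 and Angptl4 had an unadjusted P under 0.05, beside 14% of all genes, and their groups did not overlap. Angptl8 was 1.79-fold lower in sgBap1-CCl4 livers (log2 fold change -0.84, SE 0.18, adjusted P = 0.1003) and Angptl4 was 1.53-fold higher (0.61, SE 0.14, adjusted P = 0.108). DESeq2's Wald test called both (adjusted P = 0.00266 and 0.00639), beside 3.39% of all genes. Without sgBap1-CCl4 replicate 2, the liver with adipocyte RNA, the quasi-likelihood values were -0.87 (adjusted P = 0.211) and 0.55 (adjusted P = 0.243). Neither was called, and the higher Angptl4 of this group was present in the other 2 livers too. In the lists, Phgdh (0.98, SE 0.15, adjusted P = 0.0347) and the insulin-controlled factor Foxo1 (0.86, SE 0.11, adjusted P = 0.0189) were called, both higher in sgBap1-CCl4 livers.

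Last, the CCl4 changes were compared between genotypes by an interaction term, the change in sgBap1 livers minus that in NTC livers. No hepatokine was called, and 0% of all genes were. Unadjusted P was under 0.05 for 4 of the 9, beside 10.4% of all genes. The values were -1.31 for Angptl8 (SE 0.29, adjusted P = 0.130), 1.39 for Igfbp1 (SE 0.40, adjusted P = 0.236), 0.77 for Angptl4 (SE 0.23, adjusted P = 0.232) and 0.56 for Fgl1 (SE 0.25, adjusted P = 0.475). Inhbe was at -1.30 (95% interval -2.73 to 0.13) and Fgf21 at -0.80 (-3.11 to 1.5), of which the latter interval spans large differences in both directions. Fst was at 0.22 (-0.53 to 0.97) and Lect2 at -0.12 (-0.65 to 0.42). Without the liver with adipocyte RNA the quasi-likelihood values were -1.35 for Angptl8 (adjusted P = 0.146) and 1.63 for Igfbp1 (adjusted P = 0.0748). On all 10 livers, DESeq2's Wald test called these 2 genes, beside 2.95% of all genes.

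**Figure D4:**
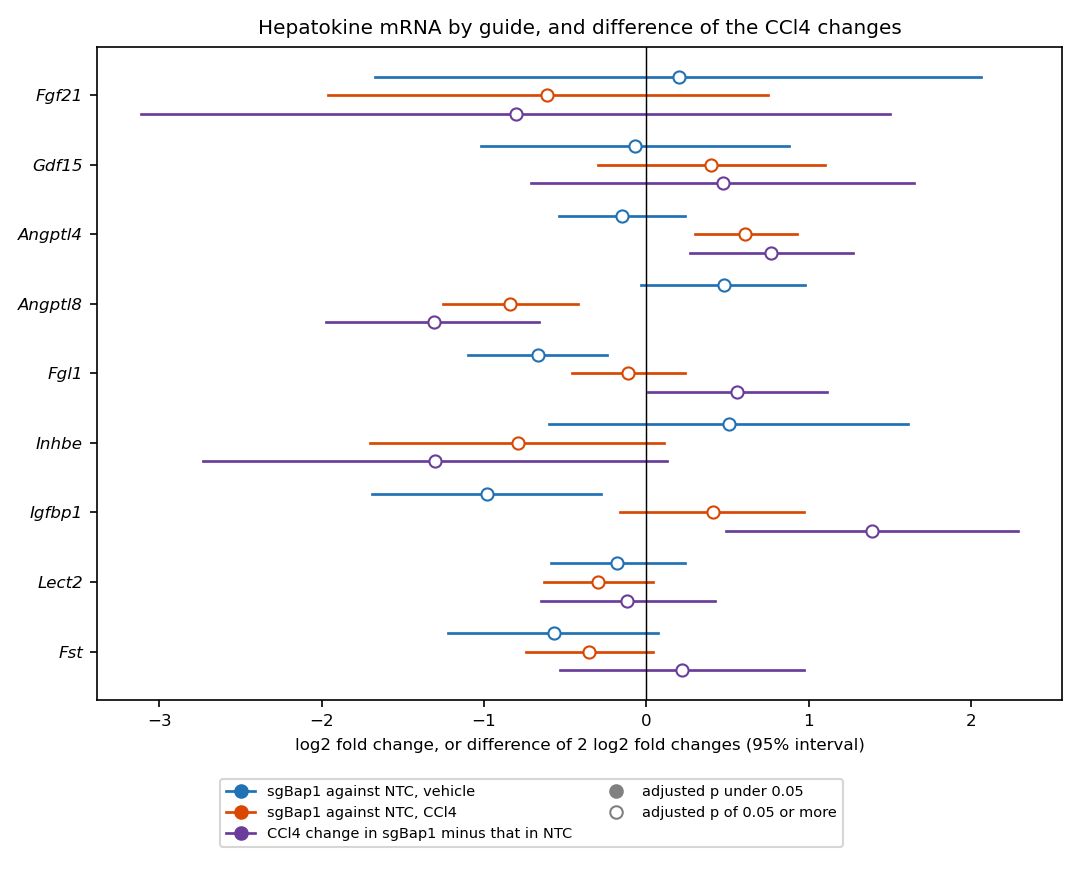
Log2 fold change between sgBap1 and NTC livers with vehicle (blue) and with CCl4 (orange), and the difference of the 2 CCl4 changes (purple), with 95% intervals of the quasi-likelihood test. All points are open because no adjusted P was under 0.05. Angptl8 shows -0.84 with CCl4 and -1.31 for the difference, and Igfbp1 -0.98 with vehicle and 1.39 for the difference.

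Beyond the receptors, partners and regulators above, other hormones and carriers of the liver mostly fell with CCl4. Of 29 tested, 5 rose and 16 fell in NTC livers, and 5 rose and 15 fell in sgBap1 livers, with medians of -0.83 and -0.52. The shares called were 72.4% and 69.0%, beside 53.9% and 57% of all genes. Hamp2, a copy of the iron hormone hepcidin that shares sequence with Hamp, fell by 6.58 and by 8.06 on the log2 scale, and Serpina6, the carrier of corticosterone, fell by 4.92 and by 5.48. Gpnmb, which macrophages also make, rose by 8.14 and 8.52 and is itself 1 of the 8 recruited macrophage markers.

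**Figure D5:**
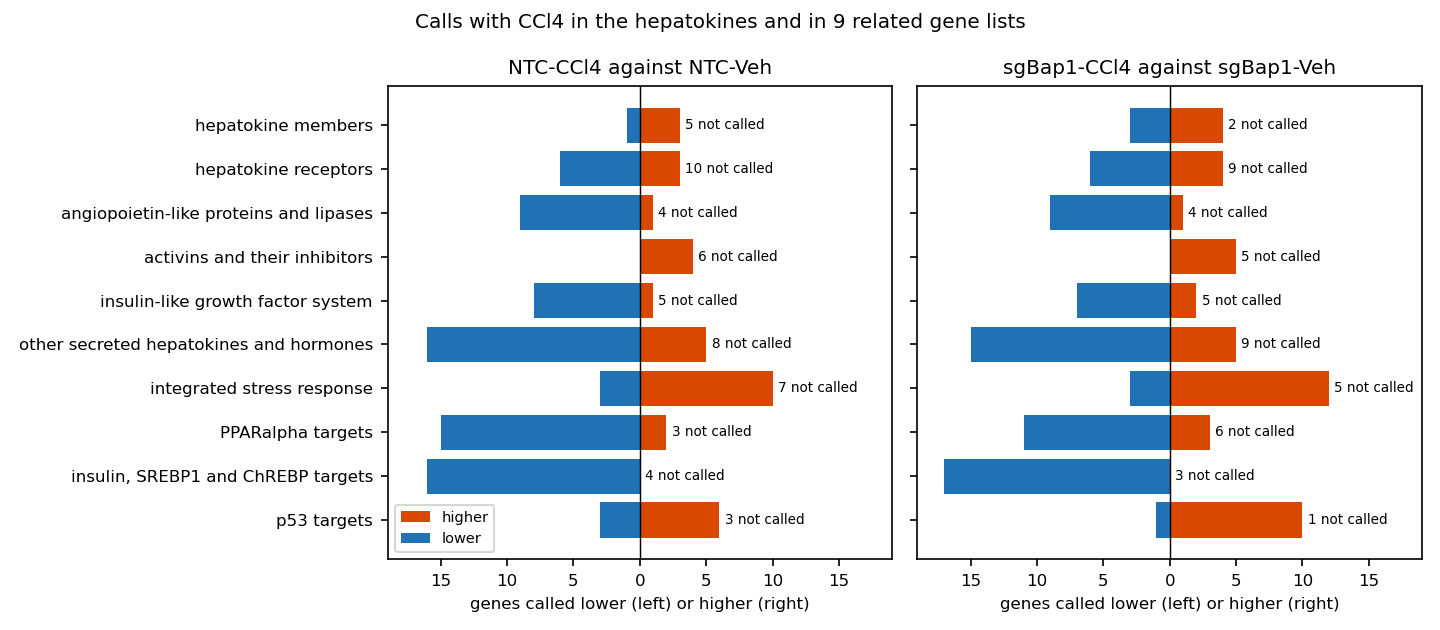
Number of genes called lower (bars to the left) and higher (bars to the right) with CCl4 in the 9 hepatokines and in 9 related gene lists, in NTC livers (left) and sgBap1 livers (right), with the number not called beside each bar. All calls among insulin, SREBP1 and ChREBP targets were lower (16 and 17 of 20), and all calls among activin genes were higher (4 and 5 of 10). Over all genes 53.9% (left) and 57% (right) were called.

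The genes whose profiles over the 10 livers were most like each hepatokine were found by the root mean square difference of centred log2 CPM. The closest matches were to Lect2, with Tdrp at 0.09 and Mcat and R3hdm4 at 0.11, and to Fgl1, with Snx24 at 0.11, Mad2l2 at 0.12 and Tctex1d2 at 0.13. Angptl4 was nearest to Rabggtb (0.17), Anapc16 (0.18) and Foxo1 (0.18). For Igfbp1 the nearest was Dnajc12 (0.27), for Inhbe Raet1d (0.24), for Gdf15 2900009J06Rik (0.27), for Angptl8 Gm49890 (0.22), for Fst Gpr31c (0.28) and for Fgf21 Gm37660 (0.34). Some of these had low mean levels, so counting error weighs on their profiles: 0.3485 CPM for 2900009J06Rik, 0.9253 for Gm49890, 0.4254 for Gpr31c and 0.2152 for Gm37660. Among the 9 themselves the nearest pairs were Angptl8 and Lect2 (0.37), Angptl4 and Lect2 (0.38), Inhbe and Lect2 (0.42) and Angptl8 and Inhbe (0.45). These distances grow with the spread of the gene itself, whose SD of log2 CPM was 0.32 for Lect2 and 1.78 for Fst.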

How the data were processed

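Bulk RNA-seq of 10 mouse livers was analysed. The authors made stranded mRNA libraries, aligned paired reads to GRCm38 with STAR 2.7.6a and quantified genes with Salmon 1.4.0 on GENCODE, and the deposited values are Salmon's estimated counts (expected counts) per gene symbol without normalization, of which 9.23% are not whole. Columns were matched to samples by library name. Rounded counts went into edgeR 4.0.16 (R 4.3.3) with filterByExpr, TMM and a single robust glmQLFit over all 4 groups. Each contrast, interaction included, was assessed by the two-sided quasi-likelihood F test of edgeR, and P-values were adjusted after Benjamini and Hochberg over 17015 genes (threshold 0.05). Fold changes are fitted values, and log2 CPM used a prior count of 2.

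Total counts were 33047904 to 52199904 per liver. The floor of 3 counts is 0.0511 to 0.112 CPM and reflects counting error alone. With 2 and 3 mice a group, an exact permutation test of a single gene could not go below P = 0.1 in any comparison, so none was run. Alternatives were DESeq2 size factors, library size alone, 2 other filters, DESeq2 1.42.0 (Wald test), limma-voom (limma 3.58.1), a replicate block, only the 2 groups compared, each mouse left out in turn and, added after the data were seen, the quasi-likelihood method of edgeR 3. The fit was tested on simulated data. Named were the 9 hepatokines, Bap1, 17 receptors and partners, up to 3 called genes of each of 9 related lists per comparison with a mean of at least 1 CPM, and the 3 genes most like each hepatokine, of which not all are given, and 1 gene that this rule names is not reported here. The members and the lists were chosen with earlier results of these data known. Positions come from GENCODE vM21 (GRCm38) and promoters from RefSeq (GRCm38.p6). No batch is named in the labels, so none was tested.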

Additional observations from a re-analysis of the deposited data

Results flagged for a closer look

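The CCl4 change of Angptl8 and of Igfbp1 differed between genotypes in 1 of the tests run. The interaction of Angptl8 was -1.32 with DESeq2's Wald test (adjusted P = 0.00367) and -1.31 with edgeR's quasi-likelihood test (adjusted P = 0.130). That of Igfbp1 was 1.38 with DESeq2 (adjusted P = 0.0174) and 1.39 with edgeR (adjusted P = 0.236). Angptl8 was lower in 3 of 3 sgBap1-CCl4 livers than in any sgBap1-Veh liver, while the NTC groups overlapped. Igfbp1 was higher in 3 of 3 CCl4 livers than in any vehicle liver in each genotype. For Igfbp1 this order therefore shows no difference between genotypes. The reason for the difference between the tests was not tested.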

How the results depend on the processing

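With 2 vehicle mice a group, single livers decide several calls. The lowest count of any hepatokine in any liver was 37. Hepatokines called moved from 0 to 2 under DESeq2's Wald test with vehicle, with CCl4 and for the interaction, and from 4 to 5 with CCl4 in NTC livers. Leaving out 1 mouse, the number called ranged from 3 to 6 with CCl4 in NTC livers, from 4 to 7 in sgBap1 livers (4 without sgBap1-Veh replicate 2), and was 0 in the other comparisons. Of 846 recomputed hepatokine values, 790 kept their direction and their side of the threshold, 24 lost a call, 15 gained a call and 17 turned direction. The number of all genes called between genotypes moved with the livers, from 0 (without NTC-Veh replicate 2) to 150 (without sgBap1-CCl4 replicate 2) with vehicle, from 1 (without NTC-CCl4 replicate 1) to 71 with CCl4 and from 0 to 7 for the interaction. It also moved with the method: with vehicle from 69 to 562 under DESeq2, 103 with no filter beyond 1 count, 32 with library size alone, 25 with limma-voom, 27 with only the 2 groups and 1 with the replicate block, with CCl4 from 56 to 509, 94, 62, 54, 28 and 24 in that order, and for the interaction from 0 to 424 under DESeq2 and 34 without the filter. The cause was not tested.

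The direction turned with library size alone for Lect2 (0.09), Fgfr4 (0.36) and Met (0.02) in NTC livers and Fgfr4 (0.45) in sgBap1 livers, where Fgfr4 was at 0.01 without a filter, and with limma-voom for Fgf21 with vehicle (-0.40). Without 1 mouse, values that turned direction ranged as follows. With CCl4 in NTC livers they went from -0.21 to 0.34 for Fgfr1, from -0.04 to 0.28 for Inhbe, from -0.23 to 0.33 for Inhbc and from -0.03 to 0.38 for Inhba. With CCl4 in sgBap1 livers they went from -0.45 to 2.16 for Fgf21, from -0.12 to 0.32 for Angptl4, from -0.16 to 0.16 for Fgfr4 and from -0.06 to 0.58 for Inhbc. Between genotypes with vehicle they went from -0.42 to 0.23 for Gdf15, from -0.39 to 0.08 for Angptl4, from -0.38 to 0.05 for Lect2, from -1.58 to 1.03 for Fgf21 and from -0.30 to 1.02 for Inhbe. For the interaction they went from -0.34 to 0.08 for Lect2 and from -1.64 to 0.98 for Fgf21.

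Replicate numbers are shared between groups, and no label says that they pair the mice. Deviations from the group means had correlations of -0.15 to 0.10 over 13 same-numbered pairs of livers. Over 24 pairs of different number they were -0.16 to 0.16. With 2 livers a group the deviations mirror each other, so these pairs are not independent and the check is weak. The numbers were not taken to pair the mice. With the replicate block, 4 and 6 hepatokines were called with CCl4 in NTC and sgBap1 livers and 0 in the other comparisons. Angptl8 was then called in NTC livers (0.58, adjusted P = 0.0461), Fgl1 there (0.52, adjusted P = 0.0643) and Inhbe in sgBap1 livers (-1.26, adjusted P = 0.0964) were not, and Inhbc turned to -0.01. Inhbe in sgBap1 livers was also not called with no filter beyond 1 count (adjusted P = 0.120) or with only the 2 groups compared (adjusted P = 0.0856).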

Other observations

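Acvr1c, the receptor through which activin E acts on fat cells, was below the filter and was not tested. It stood at 3.68 CPM (215 counts) in sgBap1-CCl4 replicate 2 and at 0 to 0.139 CPM in the other 9 livers. That liver also had the highest readings of Adipoq (36.4 CPM, against at most 0.0425 elsewhere), Plin1 (34.5 against at most 0.0188) and Fabp4 (255.8 against at most 15.8), which are defining genes of adipocytes, and of Lpl (275.3 against at most 177.2). Within the sgBap1-CCl4 group its reading was the lowest of 3 for 7 of the 9 hepatokines and the highest for the other 2, Angptl4 and Angptl8, and the gap was narrow for Angptl8 (13.33 against 13.21 CPM) and Lect2 (113.3 against 114.3 CPM). This was looked for after the adipocyte RNA had been seen, and its part in the results was not tested.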
